A study of Mus musculus with 6 samples.

Results

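The nuclear genes of oxidative phosphorylation were followed, complex by complex, in mouse sensory neurons after sciatic nerve crush and after sham surgery. They were chosen by name from the deposited expression table. Names qualified if they began with Ndufa, Ndufb, Ndufc, Ndufs or Ndufv and a digit, with Uqcr, with Cox4 to Cox8 or with Atp5, or were Sdha, Sdhb, Sdhc or Sdhd. The rule used no measured value and took 83 of 17022 gene names, with 228 of 60744 isoforms. By name, 37 belong to complex I, 4 to complex II, 9 to complex III, 16 to complex IV and 17 to complex V.

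Each library held polyadenylated RNA of neurons captured with a laser from dorsal root ganglia, where the cell bodies of sensory neurons lie. The mice were C57Bl/6 males, labelled as adult and 4 to 6 weeks old. Their ganglia, of lumbar levels 3, 4 and 5 on the side of the operation, were taken 7 days later. In the 3 crush libraries the nerve had been crushed for 10 seconds, and in the 3 sham libraries it had been laid open for 10 seconds. The labels give no transgene or drug for either group. They do not say whether a library is 1 mouse or a pool, so p-values measure how far these 6 samples spread, which may be technical. Nor do they tell injured from uninjured neurons. Expression was in FPKM, fragments scaled for transcript length and for all mapped fragments, from which the depth of a library is unknown.

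In the inner mitochondrial membrane, complex I takes electrons from NADH and complex II takes them from succinate, and both pass them to ubiquinone. Complex III hands them on to cytochrome c and complex IV to oxygen. Complexes I, III and IV pump protons as they do so, and complex V, the ATP synthase, lets the protons flow back to make ATP. Neurons spend much of that ATP on ion pumps and on transport along axons. Most subunits come from nuclear genes, as here, and the few encoded by mitochondrial DNA were not analysed here. The name rule also took genes that are not subunits: Cox4nb, now called Emc8 and part of a membrane protein complex of the endoplasmic reticulum, and Atp5s and its relative Atp5sl. It took Uqcr, an older name of Uqcr11 that was listed apart from it, and it left out the subunits Ndufab1 and Cyc1. Ndufa4, named for complex I, is now known as a partner of complex IV.

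Promoters of the members, which the rule did not use, were searched for letters that factors of mitochondrial genes are known to bind, and each motif was found in a minority of them. Of the 83 genes, 67 matched a RefSeq promoter table (build GRCm38.p6), 64 by symbol and 3 by synonym, with 73 promoters of 300 bases from 250 before to 50 after the start. A site of NRF1, an activator of nuclear genes for mitochondrial proteins, was searched on both strands as GCGCA, any base and GCGC and was found in 24.7% of the members' promoters, against 4.60% of all 32851 promoters. The site of ETS factors such as GABP, searched as CCGGAAG on both strands, was found in 21.9% of members' promoters, against 8.86% of all. AAGATGGCG, bound by YY1, was found in 12.3% against 1.40%, and AAGGTCA, bound by estrogen-related receptors, in 11.0% against 4.72%. The TATA box letters TATAAA were found in 8.22% of members' promoters, against 13.6% of all. NRF1 and ETS letters stood together in 5.48% against 0.892%. CCGGAAG ends with the letters AAG, with which AAGATGGCG and AAGGTCA begin, so matches can overlap, and a palindromic match was counted once. The 3 promoters below show the range in genes whose values follow, 5′ to 3′ on the strand of the gene, with matches in capitals on either strand. Sdha (chr13:74350191-74350490, minus strand), of the flavoprotein of complex II, held 3 NRF1 matches, Uqcrc1 (chr9:108936398-108936697, plus strand), of a core protein of complex III, held 2, and Cox6b1 (chr7:30626065-30626364, minus strand), of subunit VIb of complex IV, held 1 ETS match. Promoters of Ndufa4 and Atp5b, the most abundant members of their complexes, held none of the motifs, which says only that these letters are not in these windows.
Sdha: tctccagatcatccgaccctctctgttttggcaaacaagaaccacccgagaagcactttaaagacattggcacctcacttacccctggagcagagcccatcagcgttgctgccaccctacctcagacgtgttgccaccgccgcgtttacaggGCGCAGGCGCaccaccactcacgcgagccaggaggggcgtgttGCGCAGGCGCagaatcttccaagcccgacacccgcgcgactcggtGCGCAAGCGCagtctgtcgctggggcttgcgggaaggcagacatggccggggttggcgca
Uqcrc1: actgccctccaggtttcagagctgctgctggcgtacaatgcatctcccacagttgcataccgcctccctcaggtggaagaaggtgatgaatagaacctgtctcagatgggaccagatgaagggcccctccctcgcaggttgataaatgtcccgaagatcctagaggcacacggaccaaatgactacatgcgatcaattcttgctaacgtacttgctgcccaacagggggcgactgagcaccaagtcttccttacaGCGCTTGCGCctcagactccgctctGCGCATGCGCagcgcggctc
Cox6b1: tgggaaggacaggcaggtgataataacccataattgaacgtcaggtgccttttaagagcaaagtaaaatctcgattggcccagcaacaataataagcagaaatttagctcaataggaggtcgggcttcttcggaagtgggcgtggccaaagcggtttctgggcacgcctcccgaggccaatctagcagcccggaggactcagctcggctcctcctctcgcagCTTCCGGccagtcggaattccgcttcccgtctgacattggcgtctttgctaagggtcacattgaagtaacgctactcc

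The captured material carried neuronal transcripts at high level: 14 of 15 listed sensory neuron markers were tested, and they summed to 7463 to 8476 FPKM in crush libraries and 7713 to 9729 FPKM in sham libraries. Of these 14, 2 were called lower, the neurofilament genes Nefh and Nefm, and 0 higher, where 1.39% and 2.38% of all genes were. The log2 change was negative in 12, against 54.1% of all genes, and its median was -0.15. At an unadjusted limma p under 0.05, 5 were lower and 0 higher (8.97% and 8.59% of all genes). Without sham 2, 3 were called lower and 0 higher (4.61% and 4.94% of all genes), 9 were negative, and the median was -0.12. In that fit 7 were lower and 2 higher at an unadjusted p under 0.05 (13.5% and 12.0% of all genes). One sham library stood apart. Across the 12289 genes with a mean of at least 1 FPKM, sham 2 correlated with sham 1 and sham 3 at r = 0.978 and 0.981, while those correlated with each other at 0.996. The weights that limma estimated for the libraries were 2.86, 1.97 and 0.736 for crush 1 to 3, against 1.66, 0.162 and 0.897 for sham 1 to 3. Fits of single members are therefore given below with sham 2 and without it.

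No member of the 5 complexes was called higher or lower in the neurons of the crush libraries with FPKM as deposited. The members were abundant, with a median of 80.7 FPKM, against 8.75 FPKM for all genes tested. Together they summed to 7719, 7325 and 8744 FPKM in crush 1 to 3, against 8099.9, 11716 and 8363 FPKM in sham 1 to 3. Sham 2 was the highest of the 6, and the other sham libraries lay within the range of the crush libraries. As a share of all FPKM this was 2.39%, 2.32% and 2.58% in crush 1 to 3, against 2.52%, 3.21% and 2.60% in sham 1 to 3.

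Of the 83 members, 79 passed the minimum of 1 FPKM, and Ndufa4l2, Cox4i2, Cox6a2 and Atp5g2 did not. Genes were compared as log2(FPKM + 1) with limma, and called where the p-value adjusted over all 12289 genes was under 0.05. It called 0 of 79 members in either direction, where it called 3.78% of all genes, 2.38% higher and 1.39% lower. At an unadjusted p under 0.05 there were 0 members higher and 7 lower, where all genes had 8.59% and 8.97%. The smallest adjusted p of a member was 0.184, for Atp5l. The signs lay mostly one way: 77 of 79 members had a negative log2 change, against 54.1% of all genes, and the median was -0.22, against -0.02. Members share libraries, so these are not 79 independent observations. In 11 members all crush values lay below all sham values and in 0 above, where 14.1% and 12.2% of all genes were so placed. Without sham 2 there were 12 such members below and 1 above, against 24.7% and 20.9% of all genes. In bulk RNA, fewer cells of a type and less RNA per cell cannot be told apart.

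Without sham 2 the one-sided pattern was smaller. The median log2 change of the members was -0.05, against -0.01 for all genes, and 62 of 79 were negative, against 53.5%. Again 0 members were called by limma, where 9.55% of all genes were (4.94% higher and 4.61% lower), with 0 members higher and 6 lower at an unadjusted p under 0.05 (12.0% and 13.5% of all genes). The 95% interval of a member's log2 change had a median half-width of 0.389 with sham 2 and 0.216 without it. With sham 2 the interval took in 0 in all but 7 members. A p that misses the threshold does not show that the groups were alike.

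**Figure D1:**
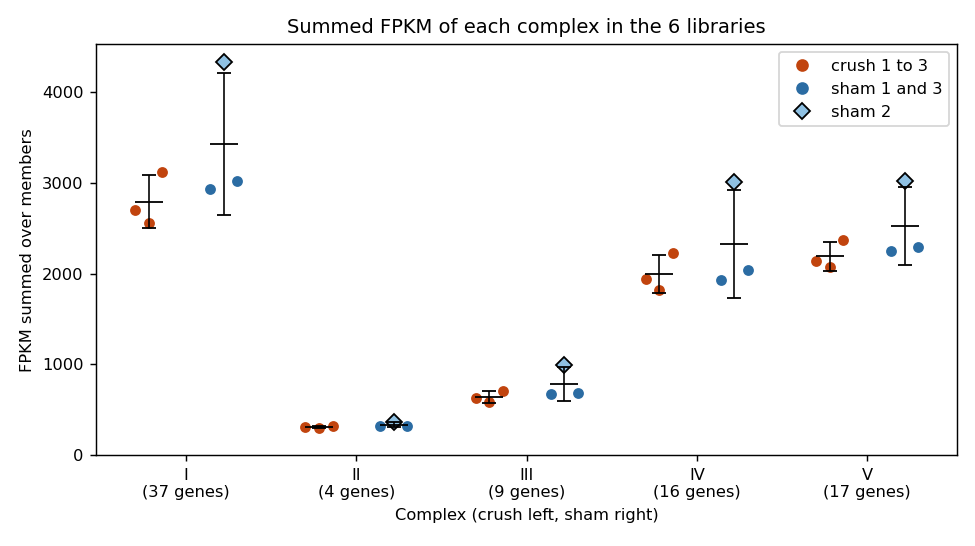
FPKM summed over the members of each complex (y axis) in each library, crush on the left and sham on the right of each pair; bars give mean ± SD of 3 libraries and the diamond is sham 2. In complex I sham 2 sits at 4324 FPKM, above the crush libraries at 2557 to 3115 FPKM and above the other sham libraries at 2930.4 and 3018 FPKM.

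By complex, the summed FPKM of the crush libraries was between 0.815 and 0.923 times that of the sham libraries, but the groups overlapped in each. Complex I summed to 2702, 2557 and 3115 FPKM in crush 1 to 3, against 2930.4, 4324 and 3018 FPKM in sham 1 to 3 (ratio of means 0.815, and 0.939 without sham 2). Complex II summed to 309.9, 302 and 326 FPKM in crush 1 to 3, against 322, 369.9 and 324 FPKM in sham 1 to 3 (0.923, and 0.968). In both, crush 3 lay above sham 1 and sham 3. Complex III summed to 629.5, 585 and 711 FPKM in crush 1 to 3, against 669.9, 997 and 683 FPKM in sham 1 to 3 (0.820, and 0.949). Complex IV summed to 1942, 1814 and 2222 FPKM in crush 1 to 3, against 1930.0, 3009.7 and 2041 FPKM in sham 1 to 3 (0.856, and 1.004). Complex V summed to 2134, 2067 and 2371 FPKM in crush 1 to 3, against 2248, 3015 and 2297 FPKM in sham 1 to 3 (0.869, and 0.964). The plot of these sums shows that the sham SD was larger than the crush SD in each complex, and that sham 2 carried it. The median log2 change of the tested members was -0.26 in complex I, -0.13 in II, -0.25 in III, -0.17 in IV and -0.19 in V, and without sham 2 it was -0.06, -0.06, -0.05, -0.0021 and -0.06 in that order. Differences between complexes were not tested.

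**Figure D2:**
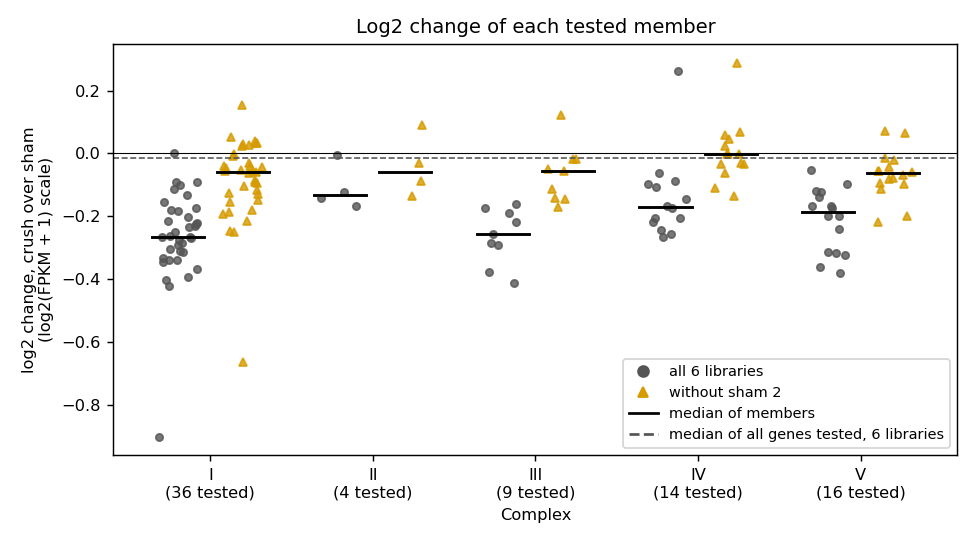
Log2 change, crush over sham, of each tested member on the log2(FPKM + 1) scale (y axis), by complex, from all 6 libraries (grey circles, 77 of 79 below 0) and without sham 2 (ochre triangles, 62 of 79 below 0). Black bars are medians of the members and the dashed line is the median of all genes tested.

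Sham 2 was the highest of the 6 libraries in 74 of 79 members, against 35.1% of all genes. Its value on the log2(FPKM + 1) scale lay above the mean of sham 1 and sham 3 by a median of 0.513 in the members, against 0.00889 in all genes. The median was 0.578 in complex I, 0.218 in II, 0.709 in III, 0.468 in IV and 0.361 in V. Crush 3 stood apart from its group in the same direction, above the mean of crush 1 and crush 2 in 77 of 79 members, by a median of 0.231, against 54.2% of all genes and a median of 0.0168.

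This offset of sham 2 went with the length of the transcripts. The members are short, with a median isoform length, weighted by FPKM, of 819 bases, against 2963 bases for all genes. In members under 600 bases (n = 24) the median offset was 0.677, against 0.479 in all 295 such genes. It was 0.603 against 0.450 from 600 to under 1000 bases, 0.392 against 0.243 from 1000 to under 2000 bases, and 0.138 against 0.003 from 2000 to under 4000 bases, where 8 members lie. In each of these length classes the members' median was above that of all genes. Across the 79 members, which share these libraries, the offset correlated with log2 length at r = -0.54, the offset of crush 3 at -0.45 and the log2 change at 0.37. Across these members the log2 change without sham 2 correlated with length at -0.002. In that fit the median log2 change of members under 600 bases was -0.03, against 0.08 in all such genes. It was -0.07 against 0.04 from 600 to under 1000 bases and -0.05 against 0.009 from 1000 to under 2000 bases. From 2000 to under 4000 bases it was -0.10 against -0.01, and at 4000 bases and over (3 members) -0.03 against -0.04. Over all genes the median thus fell with length in that fit. The cause of the offset was not tested.

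**Figure D3:**
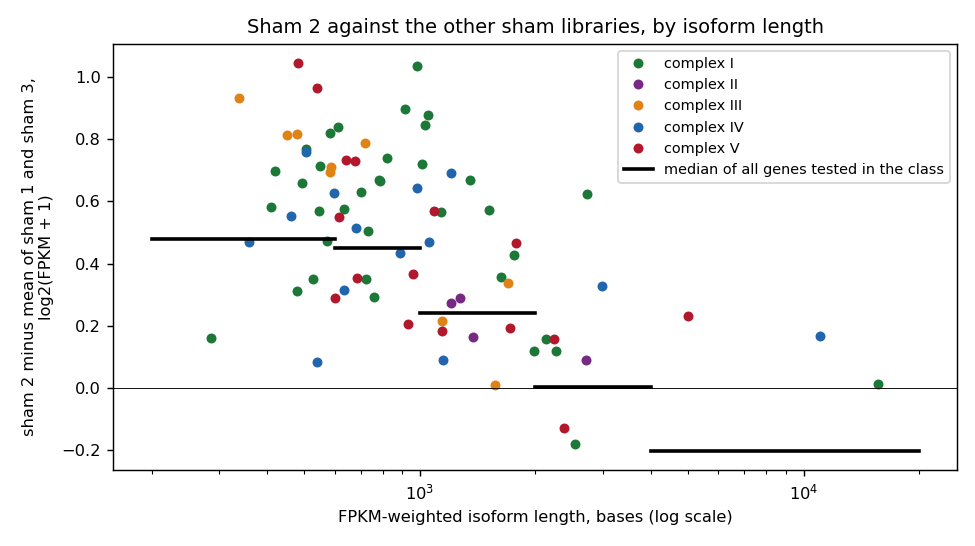
Offset of sham 2 from the mean of sham 1 and sham 3 in log2(FPKM + 1) (y axis) against FPKM-weighted isoform length in bases (x axis, log scale), 1 point per tested member, coloured by complex. Black bars are medians of all genes tested in a length class, from 0.479 under 600 bases to -0.20 at 4000 bases and over.

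Complex I, the NADH dehydrogenase, had 37 members, of which 36 were tested, 0 were called and 4 were lower at an unadjusted p under 0.05. Its most abundant gene was Ndufa4 (chr6:11850480-11857822 in mm9, minus strand), at 381, 353 and 412 FPKM in crush 1 to 3, against 397, 477 and 371 FPKM in sham 1 to 3 (log2 change -0.11, standard error 0.12, adjusted p = 0.703, and -0.0089, adjusted p = 0.960 without sham 2). The ranges overlapped widely. Of the core subunits, Ndufv1 encodes the site that binds NADH, and it had 85.2, 87.8 and 95.1 FPKM in crush 1 to 3, against 92.4, 137 and 91.7 FPKM in sham 1 to 3 (log2 change -0.23, standard error 0.16, adjusted p = 0.524, and -0.04, adjusted p = 0.713 without sham 2). Sham 2 was the only sham library above all crush libraries in this gene. Ndufs1, the largest iron-sulfur subunit, had 51.2, 45.5 and 48.5 FPKM in crush 1 to 3, against 56.2, 48.8 and 54.8 FPKM in sham 1 to 3 (log2 change -0.13, standard error 0.08, adjusted p = 0.462). It was 1 of the few members in which sham 2 did not lie above the other sham libraries, and without sham 2 its crush values lay all below the sham values (-0.19, adjusted p = 0.113). Ndufs3, another core subunit of the arm that reaches into the matrix, had 9.01, 8.50 and 11.1 FPKM in crush 1 to 3, against 10.7, 18.6 and 11.1 FPKM in sham 1 to 3 (log2 change -0.42, standard error 0.21, adjusted p = 0.365, and -0.18, adjusted p = 0.340 without sham 2). Here 96.6% of the exon bases also lie in exons of Kbtbd4 on the opposite strand, and 30.0% of those of Ndufs1 in exons of Eef1b2, so both levels are uncertain. Over the 7 core subunits the median log2 change was -0.27, and over the 29 other tested members -0.26, or -0.09 and -0.05 without sham 2.

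Among the accessory subunits of complex I, Ndufa3 had the smallest adjusted p, with 106, 98.2 and 118 FPKM in crush 1 to 3, against 125, 139.6 and 125 FPKM in sham 1 to 3 (log2 change -0.27, standard error 0.09, adjusted p = 0.200). All crush values lay below all sham values, also without sham 2 (-0.22, adjusted p = 0.157). Ndufc2, a subunit of the membrane arm singled out after its values were seen, had 78.3, 71.3 and 88.3 FPKM in crush 1 to 3, against 90.6, 120.3 and 97.8 FPKM in sham 1 to 3 (log2 change -0.37, standard error 0.13, adjusted p = 0.204, and -0.25, adjusted p = 0.151 without sham 2). Its groups did not overlap either, and its exons are shared with no other gene name. Of the 36 tested members of complex I, the 6 whose groups were apart were Ndufa3, Ndufa9, Ndufb3, Ndufb5, Ndufc2 and Ndufv2, all lower in crush. Ndufs1 joined them without sham 2. Of all genes, 14.1% were so placed, and 24.7% without sham 2. The lowest log2 change was that of Ndufa6, at 33.5, 85.8 and 111 FPKM in crush 1 to 3, against 101, 179 and 118 FPKM in sham 1 to 3 (log2 change -0.90, standard error 0.44, adjusted p = 0.360, and -0.66, adjusted p = 0.409 without sham 2). Crush 1 lay far below the other libraries in an isoform of 307 bases, which stood at 4.83, 60.5 and 78.7 FPKM in crush 1 to 3, against 70.3, 128 and 85.0 FPKM in sham 1 to 3. Without crush 1 the log2 change of Ndufa6 was -0.40 (adjusted p = 0.669), still below the complex I median of -0.23 in that fit. The highest log2 change was that of Ndufb4, near 0, at 1.52, 1.26 and 1.13 FPKM in crush 1 to 3, against 1.21, 1.42 and 1.26 FPKM in sham 1 to 3 (log2 change 0.00071, standard error 0.09, adjusted p = 0.998, and 0.04, adjusted p = 0.840 without sham 2). Its sign was negative with quantile normalization and without crush 1, and the gene was measured mainly from long isoforms at a low level.

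Complex II, the succinate dehydrogenase, is made by nuclear genes alone. Its 4 genes had the smallest median offset of sham 2 of any complex and were also the longest. Their median isoform length was 1324 bases, against 945 in complex V, 785 in IV, 785 in I and 587 in III. Sdha, the flavoprotein that oxidises succinate (chr13:74459701-74487975 in mm9, minus strand), was the most abundant, with 96.3, 95.5 and 97.8 FPKM in crush 1 to 3, against 105, 113 and 107 FPKM in sham 1 to 3. All 3 crush values lay below all 3 sham values, and the SD was 1.17 FPKM in crush and 4.04 FPKM in sham libraries around means of 96.5 and 109 FPKM (n = 3 each). It was the member of smallest adjusted p in this complex but did not pass (log2 change -0.17, standard error 0.06, adjusted p = 0.241, and -0.14, adjusted p = 0.145 without sham 2). Sdhb, the iron-sulfur protein, had 79.1, 75.6 and 84.7 FPKM in crush 1 to 3, against 74.8, 91.6 and 74.8 FPKM in sham 1 to 3 (log2 change -0.0065, standard error 0.10, adjusted p = 0.983). Without sham 2 its sign turned, its crush values lay all above the other sham values, and the log2 change was 0.09, adjusted p = 0.426. The membrane anchor Sdhd had a log2 change of -0.14 (adjusted p = 0.407, and -0.09, adjusted p = 0.401 without sham 2) and was lower in every crush library than in every sham library. Its exons share 95.7% of their bases with AU019823.

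Complex III, the cytochrome c reductase, had 9 members, all tested, with 0 called and 1 lower at an unadjusted p under 0.05. That one was Uqcrc2 (chr7:127778172-127802648 in mm9, plus strand), a core protein, with 77.8, 71.2 and 77.5 FPKM in crush 1 to 3, against 84.9, 85.5 and 85.0 FPKM in sham 1 to 3. The 3 sham values lay within 1 FPKM of each other, sham 2 included, and all above the crush values (log2 change -0.17, standard error 0.07, adjusted p = 0.238, and -0.17, adjusted p = 0.133 without sham 2). The partner core protein Uqcrc1 had 120.4, 116 and 134 FPKM in crush 1 to 3, against 127, 161 and 128 FPKM in sham 1 to 3 (log2 change -0.16, standard error 0.12, adjusted p = 0.543, and -0.05, adjusted p = 0.726 without sham 2), with crush 3 above sham 1 and sham 3. The Rieske iron-sulfur protein, Uqcrfs1, which carries electrons towards cytochrome c, had 75.7, 76.1 and 90.2 FPKM in crush 1 to 3, against 89.6, 103 and 88.5 FPKM in sham 1 to 3 (log2 change -0.22, standard error 0.10, adjusted p = 0.334, and -0.15, adjusted p = 0.341 without sham 2). Crush 3 overlapped the sham libraries there too. The small subunits deviated more in sham 2 and were shorter. Their median isoform length was 530 bases, against 1568 over the core proteins and the Rieske protein. Uqcrq, the most abundant member, had 115, 109 and 132 FPKM in crush 1 to 3, against 118, 211 and 121 FPKM in sham 1 to 3 (log2 change -0.29, standard error 0.23, adjusted p = 0.582, and -0.02, adjusted p = 0.922 without sham 2). Uqcr11 had the lowest log2 change of the complex, with 19.9, 18.1 and 24.9 FPKM in crush 1 to 3, against 23.5, 41.2 and 22.6 FPKM in sham 1 to 3 (log2 change -0.41, standard error 0.24, adjusted p = 0.440, and -0.14, adjusted p = 0.523 without sham 2). In both, sham 1 and sham 3 lay within the crush range. Exons of Uqcrq share 69.4% of their bases with Gdf9 on the opposite strand. Over the core proteins and the Rieske protein the median log2 change was -0.17, and -0.15 without sham 2. Over the 6 small members it was -0.29 and -0.04.

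Complex IV, the cytochrome c oxidase, was the complex whose members had the median log2 change nearest to 0 once sham 2 was left out. It had 16 members, 14 of them tested, with 0 called, 0 at an unadjusted p under 0.05 in either direction and 0 whose groups were apart. Cox4i1, the common form of subunit IV and the most abundant (chr8:123191630-123198007 in mm9, plus strand), had 419, 389.7 and 486 FPKM in crush 1 to 3, against 425, 680.1 and 455 FPKM in sham 1 to 3 (log2 change -0.24, standard error 0.19, adjusted p = 0.586, and -0.03, adjusted p = 0.871 without sham 2). Cox5a, which sits beside it, had 242, 241 and 290.0 FPKM in crush 1 to 3, against 257, 368 and 258 FPKM in sham 1 to 3 (log2 change -0.17, standard error 0.16, adjusted p = 0.656, and -0.0022, adjusted p = 0.992 without sham 2). In both, sham 2 was the only library of its group outside the crush range. Cox5b, a zinc-binding subunit, had the lowest log2 change, with 11.0, 11.3 and 15.0 FPKM in crush 1 to 3, against 12.6, 18.9 and 14.2 FPKM in sham 1 to 3 (log2 change -0.27, standard error 0.17, adjusted p = 0.490, and -0.11, adjusted p = 0.651 without sham 2). Cox4i1 shares 97.9% of its exon bases with Cox4nb on the opposite strand. Cox4nb itself, no part of the complex, had 6.34, 6.42 and 7.01 FPKM in crush 1 to 3, against 6.66, 7.71 and 6.85 FPKM in sham 1 to 3 (log2 change -0.09, standard error 0.08, adjusted p = 0.644, and -0.03, adjusted p = 0.812 without sham 2).

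Complex V, the ATP synthase, had 17 members, 16 of them tested, with 0 called and 1 lower at an unadjusted p under 0.05. Atp5b, the catalytic beta subunit of the F1 head, was the most abundant of all 83 members (chr10:127520331-127527250 in mm9, plus strand), with 607, 578 and 646 FPKM in crush 1 to 3, against 632, 724 and 635 FPKM in sham 1 to 3 (log2 change -0.12, standard error 0.10, adjusted p = 0.609, and -0.05, adjusted p = 0.693 without sham 2). Crush 3 lay above sham 1 and sham 3. Its partner in the head, the alpha subunit Atp5a1, had 307, 301 and 305 FPKM in crush 1 to 3, against 326, 367 and 332 FPKM in sham 1 to 3 (log2 change -0.17, standard error 0.08, adjusted p = 0.354). There the groups did not overlap, with or without sham 2 (-0.11, adjusted p = 0.270). In the stalk that holds the head in place, Atp5o had 81.9, 85.6 and 98.2 FPKM in crush 1 to 3, against 90.1, 155 and 95.4 FPKM in sham 1 to 3 (log2 change -0.31, standard error 0.21, adjusted p = 0.502, and -0.07, adjusted p = 0.666 without sham 2). Atp5h, the stalk subunit d, had the lowest log2 change of the complex, with 16.8, 14.9 and 20.0 FPKM in crush 1 to 3, against 17.0, 35.8 and 18.8 FPKM in sham 1 to 3 (log2 change -0.38, standard error 0.27, adjusted p = 0.538, and -0.06, adjusted p = 0.799 without sham 2). In both stalk genes sham 2 lay far above the other 5 libraries. All exon bases of Atp5h also lie in exons of Kctd2 on the opposite strand. Atp5l, subunit g of the membrane part, had the smallest adjusted p of all members at a low level, with 2.10, 1.89 and 1.93 FPKM in crush 1 to 3, against 2.62, 3.23 and 2.30 FPKM in sham 1 to 3 (log2 change -0.32, standard error 0.11, adjusted p = 0.184). Its crush values lay all below its sham values, also without sham 2 (-0.22, adjusted p = 0.152). These values are those of Atp5l_j1, an assembled isoform of 599 bases without a reference identifier. Atp5s, which is no structural subunit, had the highest log2 change of the complex and was still below 0, at 9.24, 9.13 and 10.5 FPKM in crush 1 to 3, against 10.3, 9.36 and 10.3 FPKM in sham 1 to 3 (log2 change -0.05, standard error 0.08, adjusted p = 0.801, and -0.09, adjusted p = 0.473 without sham 2). The median log2 change was -0.14 over 5 F1 subunits, -0.26 over 4 stalk subunits and -0.24 over 5 tested membrane subunits. Without sham 2 it was -0.05, -0.08 and -0.06 in that order.

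**Figure D4:**
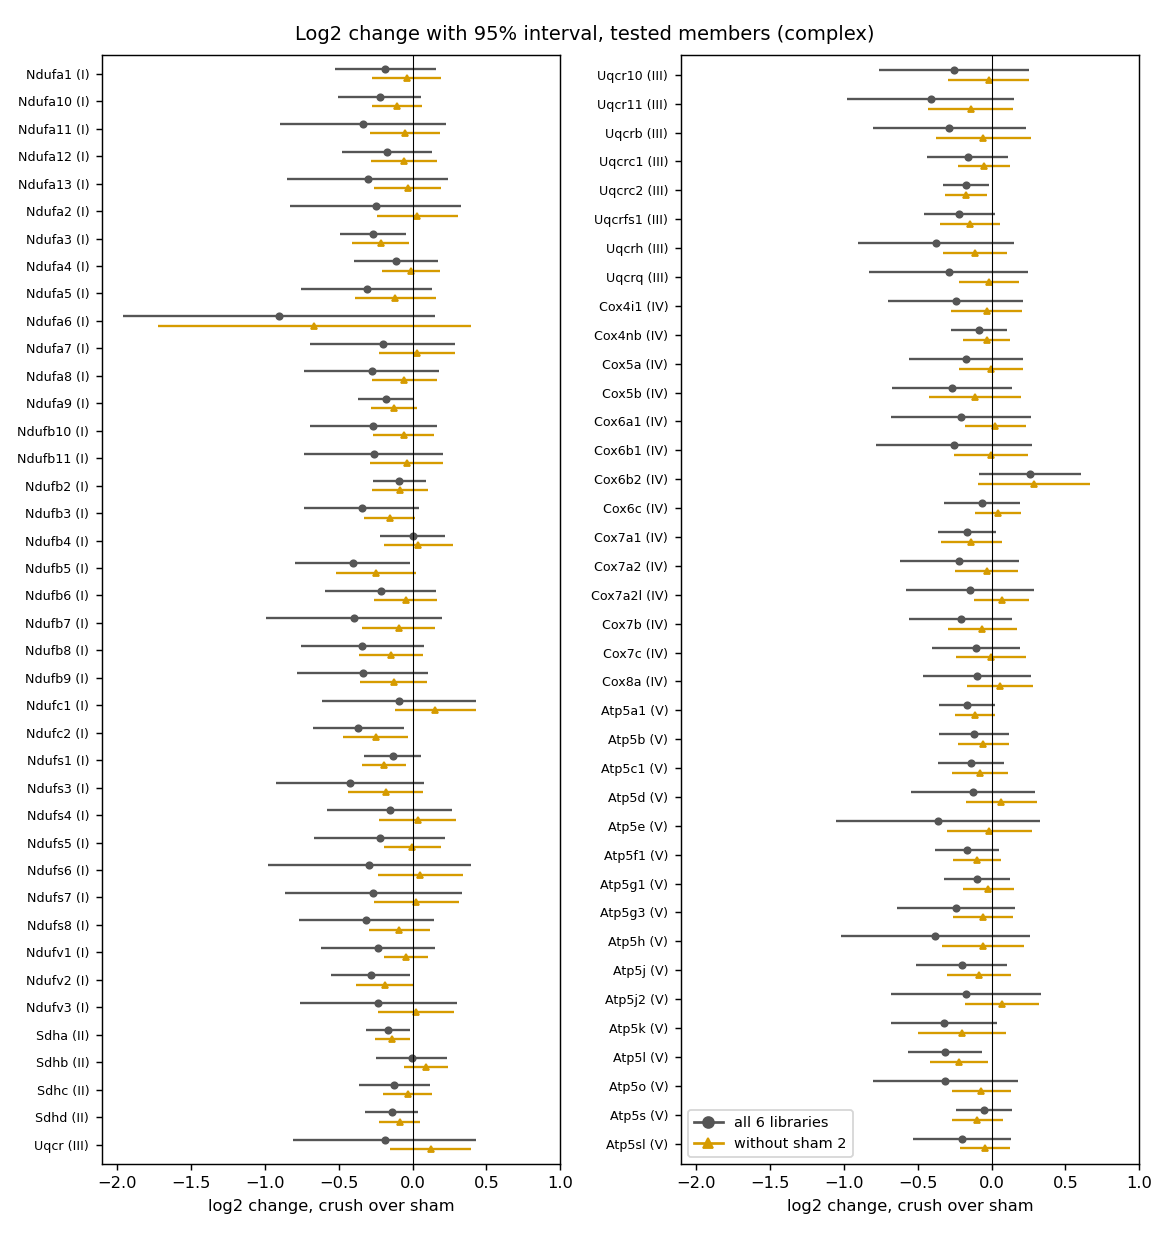
Log2 change, crush over sham, with its 95% interval (x axis) of the tested members, 1 of the 79 not shown, from all 6 libraries (grey) and without sham 2 (ochre). The intervals are narrower without sham 2 in most members, and the interval of Ndufa6 stays wide in both.

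Several subunits come in alternative forms from separate genes, and the neurons used mainly the common form of each in both groups. For subunit IV, the common Cox4i1 averaged 432 ± 49.2 FPKM in crush and 520.0 ± 139.5 FPKM in sham libraries (SD, n = 3 each, as in the next sentences), and Cox4i2, the form known from lung, 0.820 ± 0.107 and 0.918 ± 0.308 FPKM. For subunit VIa, Cox6a1 averaged 194 ± 18.3 FPKM in crush and 229.5 ± 68.2 FPKM in sham libraries, and the muscle form Cox6a2 0.198 ± 0.131 and 0.325 ± 0.234 FPKM. In both pairs the alternative form was under 1 FPKM on average and was not tested. For subunit VIb, Cox6b1 averaged 372 ± 46.4 FPKM in crush and 457 ± 149 FPKM in sham libraries. The testis form, Cox6b2, had 1.94, 2.27 and 3.17 FPKM in crush 1 to 3, against 1.56, 1.97 and 2.08 FPKM in sham 1 to 3. It had the highest log2 change of any member and did not pass (log2 change 0.26, standard error 0.15, adjusted p = 0.426, and 0.29, adjusted p = 0.313 without sham 2). Crush 1 lay below sham 2 and sham 3 in it, and from isoforms with a reference identifier alone its log2 change was -0.03.

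For subunit VIIa, Cox7a2 averaged 213 ± 20.7 FPKM in crush and 251 ± 59.2 FPKM in sham libraries. The muscle form Cox7a1 had 1.37, 1.44 and 1.63 FPKM in crush 1 to 3, against 1.62, 1.90 and 1.83 FPKM in sham 1 to 3 (log2 change -0.17, standard error 0.08, adjusted p = 0.366, and -0.14, adjusted p = 0.391 without sham 2). Its adjusted p was the smallest of complex IV, and crush 3 lay just above sham 1. Cox7a2l, a relative of subunit VIIa, averaged 63.0 ± 5.38 and 71.2 ± 19.8 FPKM (log2 change -0.15, adjusted p = 0.758, and 0.07, adjusted p = 0.633 without sham 2). Of the forms of subunit VIII, Cox8a averaged 325 ± 32.4 FPKM in crush and 351 ± 69.8 FPKM in sham libraries (-0.10, adjusted p = 0.807, and 0.06, adjusted p = 0.745 without sham 2). Beside Ndufa4, its relative Ndufa4l2, known as a target of hypoxia signalling, averaged 0.611 ± 0.137 and 0.552 ± 0.131 FPKM. The c subunit of the ATP synthase ring is encoded by 3 genes with the same mature protein. Atp5g3 averaged 422 ± 38.6 FPKM in crush and 506 ± 118 FPKM in sham libraries, Atp5g1 11.5 ± 0.749 and 12.4 ± 1.36 FPKM, and Atp5g2 0.120 ± 0.0465 and 0.147 ± 0.0226 FPKM. The values of Atp5g1 and Atp5g2 rest on long isoforms, of which that of Atp5g1 has 5017 bases, so their levels beside Atp5g3 are uncertain.

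**Figure D5:**
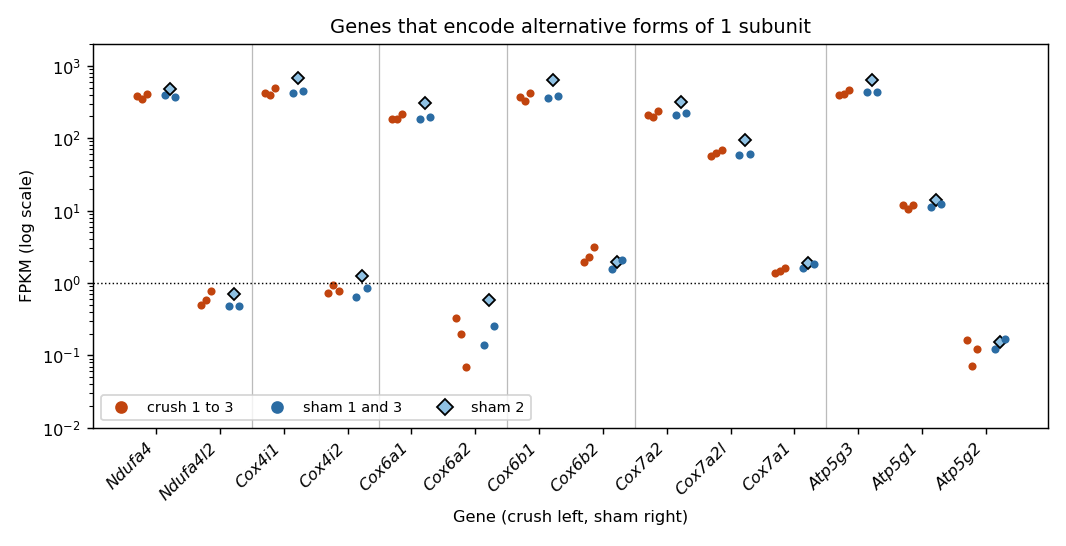
FPKM (y axis, log scale) of genes that encode alternative forms of a subunit, crush libraries on the left and sham libraries on the right of each gene, sham 2 as a diamond; the dotted line marks 1 FPKM. Cox4i1, Cox6a1, Cox6b1 and Atp5g3 lie above 180 FPKM in every library, and Cox4i2, Cox6a2, Ndufa4l2 and Atp5g2 lie around or under 1 FPKM.

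Isoforms taken one at a time gave no call either. Of 182 member isoforms tested with limma, 0 were called, where 0.0613% of all 24485 isoforms were, with 1 higher and 11 lower at an unadjusted p under 0.05 (4.55% and 4.57% of all isoforms). Without sham 2 again 0 were called, where 0.184% of all isoforms were, with 2 higher and 12 lower at an unadjusted p under 0.05 (6.53% and 6.78%). The smallest p belonged to Ndufv2_j1, an isoform of a subunit at the NADH end of complex I, with 71.0, 63.3 and 63.5 FPKM in crush 1 to 3, against 83.9, 88.3 and 78.9 FPKM in sham 1 to 3 (log2 change -0.34, standard error 0.09, adjusted p = 0.299, and -0.30, adjusted p = 0.218 without sham 2). Its groups did not overlap. In the test for a difference between the isoforms of a gene (limma's diffSplice), 0 of 58 member genes were called, where 0.519% of all genes were, again 0 without sham 2, and Cox4i1 alone had an unadjusted p under 0.05, as 6.23% of all genes did (adjusted p = 0.597). There the isoform Cox4i1_j2, of 512 bases, was listed at 0, 55.6 and 0 FPKM in crush 1 to 3, against 45.7, 82.4 and 54.9 FPKM in sham 1 to 3, so the listing at 0 in a pair of crush libraries set the difference.

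In the authors' deposited table, which compares pooled group estimates, 135 of the 228 member isoforms had a completed test, 90 a failed one and 3 none. Of the 135, 3 were significant upwards and 3 downwards, where 15.1% of all isoforms with a completed test were (8.26% upwards and 6.84% downwards). They belong to 6 genes. The authors' deposited table gives a log2 fold change, taken here as crush over sham, of -0.73 for Atp5g3_j2, an isoform of the ring subunit c, with 72.5, 108.5 and 97.0 FPKM in crush 1 to 3, against 103, 166 and 108 FPKM in sham 1 to 3. It gives -1.62 for Ndufs4_j1, with 0.278, 0 and 0.339 FPKM in crush 1 to 3, against 1.35, 1.78 and 1.19 FPKM in sham 1 to 3, where the groups were apart. It gives 0.93 for Ndufb6_j1, where the values per library overlap, and 1.43 for Ndufv1_j2, with 0.334, 0.222 and 0.894 FPKM in crush 1 to 3, against 0.526, 0.708 and 0.0914 FPKM in sham 1 to 3, where they overlap too. It gives 1.37 for a Cox8a isoform of 2013 bases, where sham 2 holds a high value and the mean of the crush libraries is below that of the sham libraries. The last, Ndufa7_j4, was listed above 0 in sham 1 only.

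Other genes of the mitochondrion gave few calls. Over the lists of subunits outside the name rule, assembly factors, the citric acid cycle, biogenesis, import, fatty acid oxidation, dynamics, carriers and ribosomal proteins, limma called 0 of 222 genes higher and 4 lower, where 2.38% and 1.39% of all genes were. At an unadjusted p under 0.05 there were 3 higher and 26 lower, where all genes had 8.59% and 8.97%. The median log2 change was -0.11, and -0.04 without sham 2, where 1 was called higher and 6 lower (4.94% and 4.61% of all genes). Of 17 genes of the citric acid cycle 16 had a negative log2 change, with a median of -0.13, 1 called lower and 3 lower at an unadjusted p under 0.05. Without sham 2 the median was -0.09, again 16 were negative, 2 were called lower and 7 were lower at an unadjusted p under 0.05, where 13.5% of all genes were. Of the genes called with all libraries, Ckmt1, the mitochondrial creatine kinase that passes on the energy of ATP made by complex V, fell, with 96.5, 86.6 and 99.2 FPKM in crush 1 to 3, against 139, 176 and 138 FPKM in sham 1 to 3 (log2 change -0.67, standard error 0.12, adjusted p = 0.0313). Among 20 genes of mitochondrial dynamics and transport, Bnip3, a receptor for the removal of mitochondria, fell (log2 change -0.33, standard error 0.06, adjusted p = 0.0353), and so did Snph, an anchor of mitochondria in axons (log2 change -0.28, standard error 0.06, adjusted p = 0.0486). In these 3 the groups did not overlap and the sign was the same without sham 2. The calls of Ckmt1 and Bnip3 were lost without each of crush 1, crush 2, crush 3, sham 1 and sham 3, with adjusted p between 0.0732 and 0.168, and were kept without sham 2 (0.00658 and 0.00725). Snph, named after its values were seen, was likewise lost without each of those 5 libraries (adjusted p between 0.149 and 0.208) and kept without sham 2 (0.0198). With upper-quartile scaling and quantile normalization the calls of Bnip3 (adjusted p = 0.0737 and 0.0617) and Snph (0.0918 and 0.0921) were lost, and that of Snph also with no filter (0.0566) and with isoforms of status OK alone (0.0508). From isoforms with a reference identifier alone Ckmt1 (0.111) and Snph (0.876) were not called.

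Of 26 tested assembly factors 0 were called (median log2 change -0.10, with 1 higher and 4 lower at an unadjusted p under 0.05, where 8.59% and 8.97% of all genes were), and of 71 mitochondrial ribosomal proteins 0 (-0.12, 0 higher and 4 lower). The smallest adjusted p among the assembly factors was that of Uqcc, a factor of complex III (log2 change -0.20, adjusted p = 0.184), among import genes that of Tomm34 (-0.24, adjusted p = 0.236), in fatty acid oxidation that of Etfa, of the electron transfer flavoprotein (-0.27, adjusted p = 0.172), and among ribosomal proteins that of Mrpl41 (-0.88, adjusted p = 0.171). Sham 2 lay above the other sham libraries by a median of 0.407 in the ribosomal proteins. Of 21 regulators of mitochondrial biogenesis 0 were called (median 0.0022, 1 higher and 2 lower at an unadjusted p under 0.05). Without sham 2 the medians of these lists were -0.07, -0.0082 and -0.02 in that order, and 1 gene of them was called, a regulator. The nuclear receptor Esrrg, whose family binds the letters AAGGTCA, had 3.94, 2.58 and 4.04 FPKM in crush 1 to 3, against 8.46, 5.02 and 8.91 FPKM in sham 1 to 3 (log2 change -0.89, standard error 0.22, adjusted p = 0.0895). Its groups did not overlap, and it was that regulator, called lower without sham 2 (-1.12, adjusted p = 0.00725). Of the subunits that the name rule left out, Cyc1, the cytochrome c1 of complex III, had 121, 115 and 131 FPKM in crush 1 to 3, against 132, 151 and 137 FPKM in sham 1 to 3 (log2 change -0.20, standard error 0.09, adjusted p = 0.301, and -0.14, adjusted p = 0.266 without sham 2), with crush 1 to 3 all below the sham libraries.

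Of 10 tested macrophage markers 9 were called higher after crush, where 2.38% of all genes were, and 0 had a negative log2 change. The 11 measured summed to 106 to 115 FPKM in crush and 45.7 to 55.3 FPKM in sham libraries. Satellite glia markers (0 of 8 called) summed to 2041 to 2269.6 FPKM in crush and 1994 to 2891 FPKM in sham libraries, and Schwann cell markers (0 of 7 called) to 1121 to 1193 and 1072 to 1335 FPKM. Fibroblast and vessel markers (0 of 8 called) summed to 186 to 196 FPKM in crush and 122 to 163 FPKM in sham libraries. At an unadjusted p under 0.05, 4 fibroblast and vessel, 3 Schwann cell and 1 satellite glia marker were higher, where 8.59% of all genes were. At that level 1 Schwann cell marker was lower, where 8.97% of all genes were. The log2 change was negative in 0 of the 8 fibroblast and vessel, 1 of the 7 Schwann cell and 2 of the 8 satellite glia markers. Blood markers (0 of 2 called) summed to 98.1 to 220.5 and 107 to 168 FPKM. Among 6 striated muscle markers measured, 5 were under 1 FPKM, as were 3 of 4 fat markers (0 of 1 tested called). The sixth muscle marker, Pvalb, fell after crush and is also a marker of proprioceptive neurons. Without sham 2 all 10 tested macrophage markers were called higher, with 2 fibroblast and vessel markers, 1 Schwann cell marker and 1 satellite glia marker, and Pvalb lower. Of all genes 4.94% were called higher in that fit and 4.61% lower. At an unadjusted p under 0.05 it had 5 fibroblast and vessel, 6 Schwann cell and 1 satellite glia marker higher (12.0% of all genes). It had 1 Schwann cell marker lower at that level (13.5% of all genes). None of these measured markers was at 0 in all libraries. The part of these and of the neuron markers in the values of the oxidative phosphorylation genes was not tested.

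Since the offset of sham 2 went with length, the comparison was repeated after a smooth length trend had been taken out of each library, a step chosen after seeing the data. In that fit 0 members were called higher and 2 lower, where 4.66% of all genes were called higher and 3.19% lower. They were the complex I subunits Ndufb3 (adjusted p = 0.0418) and Ndufc2 (adjusted p = 0.0350). At an unadjusted p under 0.05 limma had 1 member higher and 18 lower, where 1477 and 1321 of the 12289 genes were. Here 72 of 79 members were negative, and their median was -0.13, against 0.0010 for all genes. With sham 2 left out as well, 6 members were called lower and 0 higher, where 6.38% of all genes were called lower and 7.49% higher. All 6 belong to complex I, which holds 36 of the 79 tested members: Ndufa3, Ndufb3, Ndufb5, Ndufb8, Ndufc2 and Ndufv2. Of these Ndufa3 had a log2 change of -0.30 (adjusted p = 0.00626) and Ndufc2 -0.29 (adjusted p = 0.0128). In complexes II to V 0 members were called in that fit, and the difference between complexes was not tested. With the deposited FPKM as they stand, none of the 6 was called. With the length trend removed and sham 2 left out, 0 members were higher and 26 lower at an unadjusted p under 0.05. Of all 12289 genes, 1885 were higher and 1740 lower at that level. In this fit 63 of 79 members were negative, and their median was -0.09, against 0.0014 for all genes.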

How the data were processed

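Expression was given by the authors as FPKM per isoform and library in a deposited table, with intervals, and the same table holds the authors' p-value, q-value and log2 fold change per isoform from pooled groups. Per the submitters' processing notes, TopHat 1.3.2, Cufflinks 1.1.0 and Cuffdiff 1.2.1 were used with build mm9. Positions, lengths and exon overlaps come from the authors' deposited exon file. Strand was not stated to be kept, so reads of genes overlapping antisense to each other cannot be assigned by strand. For single-isoform members the deposited interval had a median half-width of 23.5% of the value.

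FPKM was summed over isoforms of a name. Features averaging 1 FPKM or more were fitted on the log2(FPKM + 1) scale, which understates changes of low genes, with limma 3.58.1 (R 4.3.3; moderated variance with a trend, 2-sided) and Benjamini-Hochberg adjustment over all features tested. Named are, per complex, the most abundant member, that of smallest adjusted p and those of highest and lowest log2 change, with textbook subunits and alternative forms. Of other lists, called members or that of smallest adjusted p are named, as far as reported here. The members and lists were chosen with earlier results of these data known. The fit was also run on simulated data with independent genes and no offset of sham 2 or length trend. That run cannot show how these features affect the calls. No batch of surgery or extraction was named in the labels. All libraries were mixed and run on 3 lanes. Results for a few genes are not reported here.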

Additional observations from a re-analysis of the deposited data

How the results depend on the processing

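With each of the 6 libraries left out in turn, limma called 0 members of every complex in either direction. The median log2 change ranged from -0.39 to -0.06 in complex I, -0.17 to -0.06 in complex II, -0.389 to -0.0546 in complex III, -0.27 to -0.002 in complex IV and -0.27 to -0.06 in complex V, and each was nearest to 0 without sham 2. Over all genes 43 to 607 were called higher and 10 to 567 lower, the most without sham 2. In the other mitochondrial lists 0 to 1 were higher and 0 to 6 lower, 0 to 1 member isoforms were lower and 0 to 1 members were called in the isoform-difference test. With the length trend removed, complex I had 2 members lower, all genes had 573 higher and 392 lower (median 0.0010) and the other lists 1 higher and 9 lower. With sham 2 also left out these were 6, then 921 and 784 (median 0.0014), then 3 and 18, and complex III had a median of -0.108. With library weights all genes had 734 higher and 695 lower, the other lists 1 higher and 9 lower, member isoforms 1 higher and 5 lower, the isoform-difference test 4 members, and complex III a median of -0.107. Reference isoforms alone gave 52 higher and 15 lower (0 lower in the other lists), and a mean of at least 5 FPKM 165 higher (median -0.027). Upper-quartile scaling gave 348 higher and 131 lower (median 0.022), with 2 lower in the other lists, and quantile normalization gave 1 higher there. Deviations from the group mean correlated at 0.372, -0.309 and -0.486 between crush and sham libraries of equal number, 1 to 3. The highest such correlation was 0.590, between crush 3 and sham 2, the libraries that stood apart. These values therefore cannot show whether equal numbers were paired. With the replicate block limma called 0 members, 45 genes higher and 5 lower, and 0 in the other lists. Without a filter, with a pseudocount of 0.1 or with isoforms of status OK alone, counts of calls stayed within 1.5 times. The causes were not tested. FPKM hold no read counts, so what depth limits is unknown.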
